A study of Mus musculus with 3 samples.

Results

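Chemokines and chemokine receptors were described in whole mouse skin at 3 ages by RNA sequencing. The genes were taken by name: every row of the 3 tables whose gene symbol begins with Ccl, Cxcl, Ccr, Cxcr, Xcl, Xcr, Cx3cl or Cx3cr directly followed by a digit. This gave 58 of 21881 rows, 38 of ligands and 20 of receptors, and the rule uses names alone. All skin came from FVB mice, an inbred albino laboratory strain, with columns headed WT: embryos at day 18.5 (E18.5), pups at postnatal day 3 (P3) and adults at 10 weeks. Neither a transgene nor a treatment is named in the labels, and whether animals were pooled is not given in the sources used here. The design text gives 2 biological replicates for each age, while the tables hold 1 averaged value per gene and age. The spread between animals is therefore unknown, no p-value was computed, and the differences lack a check against replicates.

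Chemokines are small secreted proteins, a few of them tethered to the cell surface, that attract cells along gradients. They act through receptors with a bundle of membrane-spanning helices that signal by G proteins of the inhibitory class. Their families, C, CC, CXC and CX3C, are named for the spacing of the first cysteines, and many ligands share receptors. In skin, keratinocytes, fibroblasts, vessels and resident immune cells all release them, and they guide monocytes, T cells and Langerhans cells into the tissue.

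The unit is FPKM, a count of sequenced fragments normalised to transcript length and library size, so that levels of different genes can be set side by side. Of the 58 rows, 43 reached 1 FPKM at 1 or more ages (29 ligands and 14 receptors) and were compared. The measure was the difference of log2(FPKM + 1) between 2 ages. Genes past a threshold of 1 in either direction, 2-fold on this scale, count as higher or lower; the scale understates the change of low genes. Read depth is not given in the sources used here, so the precision of values near or under 1 FPKM is unknown. Keratinocyte and fibroblast markers were abundant at each age, with Krt14 at 952, 2439 and 646 FPKM and Col1a1 at 1080, 412 and 354 FPKM at E18.5, P3 and 10 weeks. Xist, the RNA of the inactive X chromosome of females, stood at 0.0433, 64.6 and 73.0 FPKM. The E18.5 values thus differ from the others in this sex-linked RNA as well as in age, and in comparisons with E18.5 sex and age cannot be told apart. The summed FPKM of 4 skeletal muscle markers was 3841, 318 and 14550. Since FPKM values are relative to the whole library, the level of 1 abundant gene group bears on all other values; its part in them was not tested.

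Most chemokine and receptor genes stood highest in the adult. Of the 43 compared, 29 were higher at 10 weeks than at P3 (19 ligands and 10 receptors) and 1 was lower, against 19.8% of all genes higher and 9.98% lower. Against E18.5, 31 were higher at 10 weeks and 4 lower, with 16.1% and 6.92% among all genes. From E18.5 to P3, 4 were higher and 5 lower, with 9.56% and 9.42% among all genes. With 2 other scalings of the libraries, by median of ratios and by upper quartile, single calls moved, as given beside the genes below. The upper quartile made this count 3 higher and 7 lower, beside 1099 higher and 1843 lower of all genes in place of 1401 and 1380; from E18.5 to 10 weeks it made all genes 1786 higher and 1355 lower in place of 2358 and 1014. The median difference of the 43 was 1.43 from P3 to 10 weeks (0.14 over all genes), 1.65 from E18.5 to 10 weeks (0.22) and -0.07 from E18.5 to P3 (0.03). In all, 27 of the 43 were higher at 10 weeks than at both other ages, a pattern that 12.3% of all genes had.

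The filter on low values bears on these counts. Of the 43, 18 reached 1 FPKM at 10 weeks alone and entered through the age at which they were high, and 3 did so at E18.5 alone. Among the 20 members that already stood at 1 FPKM or more at P3, 12 were higher at 10 weeks and 1 lower, a share of 60.0% higher, against 15.0% of the 12886 genes at that level. The 3 comparisons share their values: each age enters 2 of them.

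**Figure D1:**
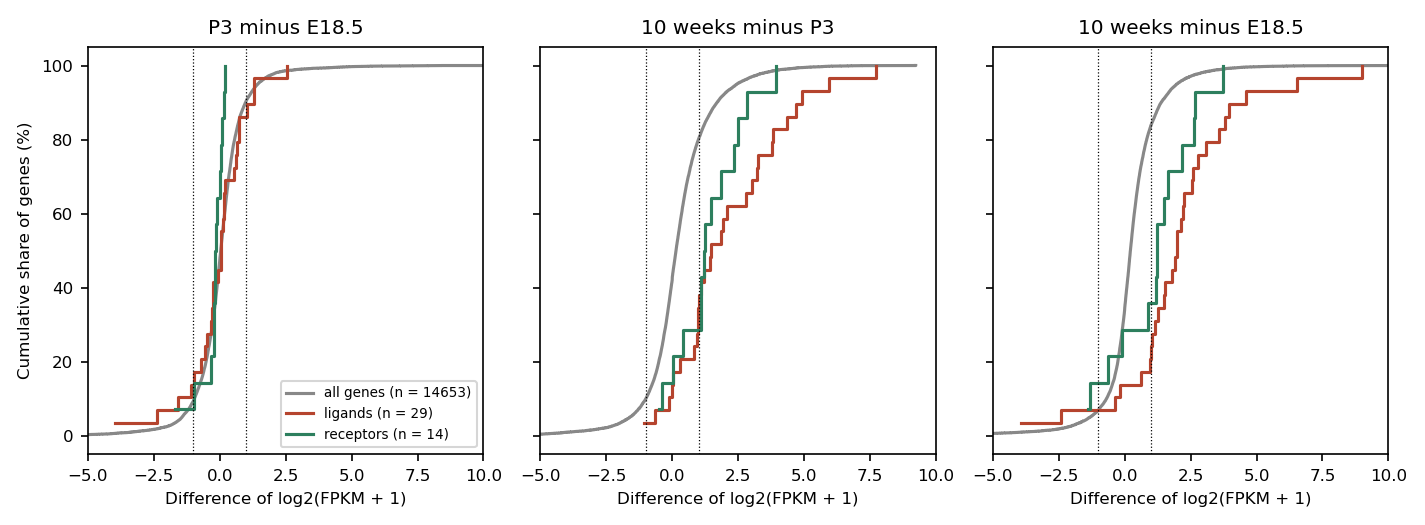
Cumulative share of genes (vertical axis, percent) by difference of log2(FPKM + 1) (horizontal axis) for the 3 comparisons of ages, for all genes compared, 29 chemokine ligands and 14 receptors; dotted lines mark the threshold of 1 in either direction. The curves of ligands and receptors lie to the right of that of all genes in both comparisons with 10 weeks, and near it from E18.5 to P3.

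Markers of immune cells were counted at the same ages, where 19.8% of all genes were higher at 10 weeks than at P3. Of 10 macrophage markers, 9 were higher at 10 weeks than at P3 and 0 lower. Their summed level was 302 FPKM in the embryo, 166 at P3 and 2746 in the adult. At P3, 6 of the 10 were lower than at E18.5 and 1 higher, against 9.42% and 9.56% of all genes. None of the 10 was at 0 at any age. Of 5 T cell markers, 4 were higher at 10 weeks than at P3, with sums of 2.40, 3.15 and 29.0 FPKM. These 4 reached 1 FPKM at 10 weeks alone and were compared through that age. The sums for 4 markers of dendritic and Langerhans cells were 1.92, 5.91 and 32.1 FPKM. B cell markers were low, with sums of 1.49, 0.680 and 1.63 FPKM, as were 3 neutrophil markers, with 1.13, 0.313 and 3.07 FPKM. The 5 mast cell markers summed to most in the embryo, with 871, 95.8 and 530.1 FPKM. From E18.5 to 10 weeks 1 of them was higher and 2 lower, against 16.1% and 6.92% of all genes. In whole tissue, more cells of a type and more RNA per cell cannot be told apart, and the part of these cell types in the chemokine values was not tested.

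The make-up of the RNA of the 38 ligand rows turned over between P3 and adulthood. The 38 ligand rows summed to 208 FPKM in the embryo, 244 in the pup and 1893 in the adult. At both early ages the sum was held mostly by ligands known from epithelia, 51.1% at E18.5 and 78.8% at P3, and Cxcl14 alone made up 40.1% and 56.1%. At 10 weeks the epithelial class held 8.70%, the stromal class 19.8% and the ligands known from macrophages and other myeloid cells 69.9%, where they had held 9.19% at E18.5 and 6.85% at P3. Ccl8 made up 34.9% of the adult sum and Ccl6 25.1%. The classes are textbook groupings of a ligand's usual source, and no cell of origin was measured here. These sums and shares leave out Pf4, a chemokine ligand whose name does not follow the rule. Pf4 stood at 125, 21.8 and 230 FPKM in order of age, at E18.5 above Cxcl14 with 83.2 FPKM. The shares thus hold for the 38 rows and not for all chemokine ligands.

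**Figure D2:**
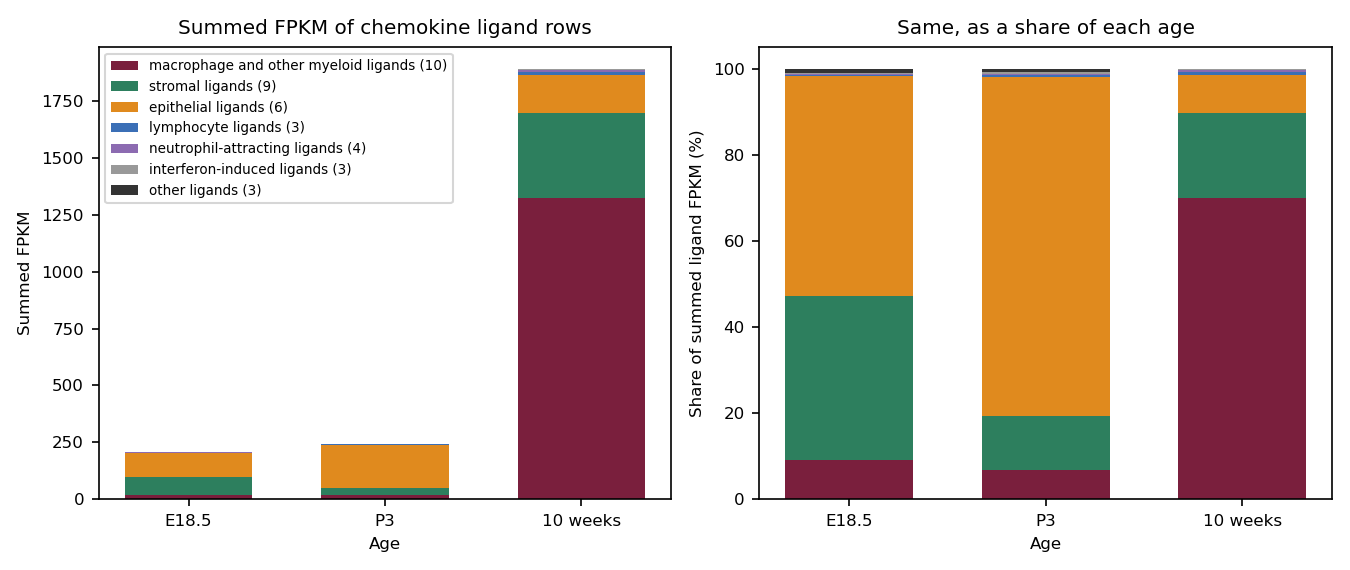
Summed FPKM of the 38 chemokine ligand rows by age (left) and the same as a share of each age in percent (right); colours are the usual cell source of a ligand, with the number of rows in brackets. The adult sum of 1893 FPKM is mostly the macrophage and myeloid class, while the sums of 208 and 244 FPKM at E18.5 and P3 are mostly epithelial. Pf4, which the name rule leaves out, is not included.

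From E18.5 to P3, 3 of the 5 compared epithelial ligands were higher and 0 lower, against 9.56% and 9.42% of all genes. Cxcl14, a constitutive chemokine of keratinocytes (mm9 chromosome 13, 56390006 to 56397912), had values of 83.2, 137 and 64.0 FPKM in order of age. It was the 1 member lower at 10 weeks than at P3 (difference -1.09), and from E18.5 to 10 weeks it differed by only -0.37. Its course thus peaked at P3, as did the summed level of 4 basal keratinocyte markers, at 2071, 5207 and 1569 FPKM; the part of that in the Cxcl14 value was not tested.

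Ccl27a, the keratinocyte chemokine that draws CCR10-bearing T cells to skin (chromosome 4, 41707316 to 41721049), was larger at each later age, at 19.2, 40.1 and 79.6 FPKM. Its differences were 1.03 from E18.5 to P3 and 0.97 from P3 to 10 weeks, on either side of the threshold, and 2.00 over both. The first of these calls is lost under both other scalings. Its listed span overlaps that of Il11ra1, and near-identical copies of Ccl27a exist in the mouse genome, so its values are uncertain.

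Cxcl16, which is made as a membrane protein and shed, took a like course with 2.08, 6.49 and 13.7 FPKM, higher at P3 than at E18.5 by 1.28; its listed span overlaps that of Zmynd15. Ccl20, which attracts CCR6-bearing cells to epithelia, had the largest difference upward of the compared members from E18.5 to P3, 2.56, at 0.157 and 5.81 FPKM. It kept a level of 3.33 FPKM at 10 weeks. Cx3cl1, the membrane-bound fractalkine of epithelia, vessels and neurons, stood at 1.49, 3.16 and 4.05 FPKM, and only its difference from E18.5 to 10 weeks, 1.02, passed the threshold, a call lost under both other scalings. All 5 thus had a larger value at P3 than at E18.5, also those inside the threshold.

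**Figure D3:**
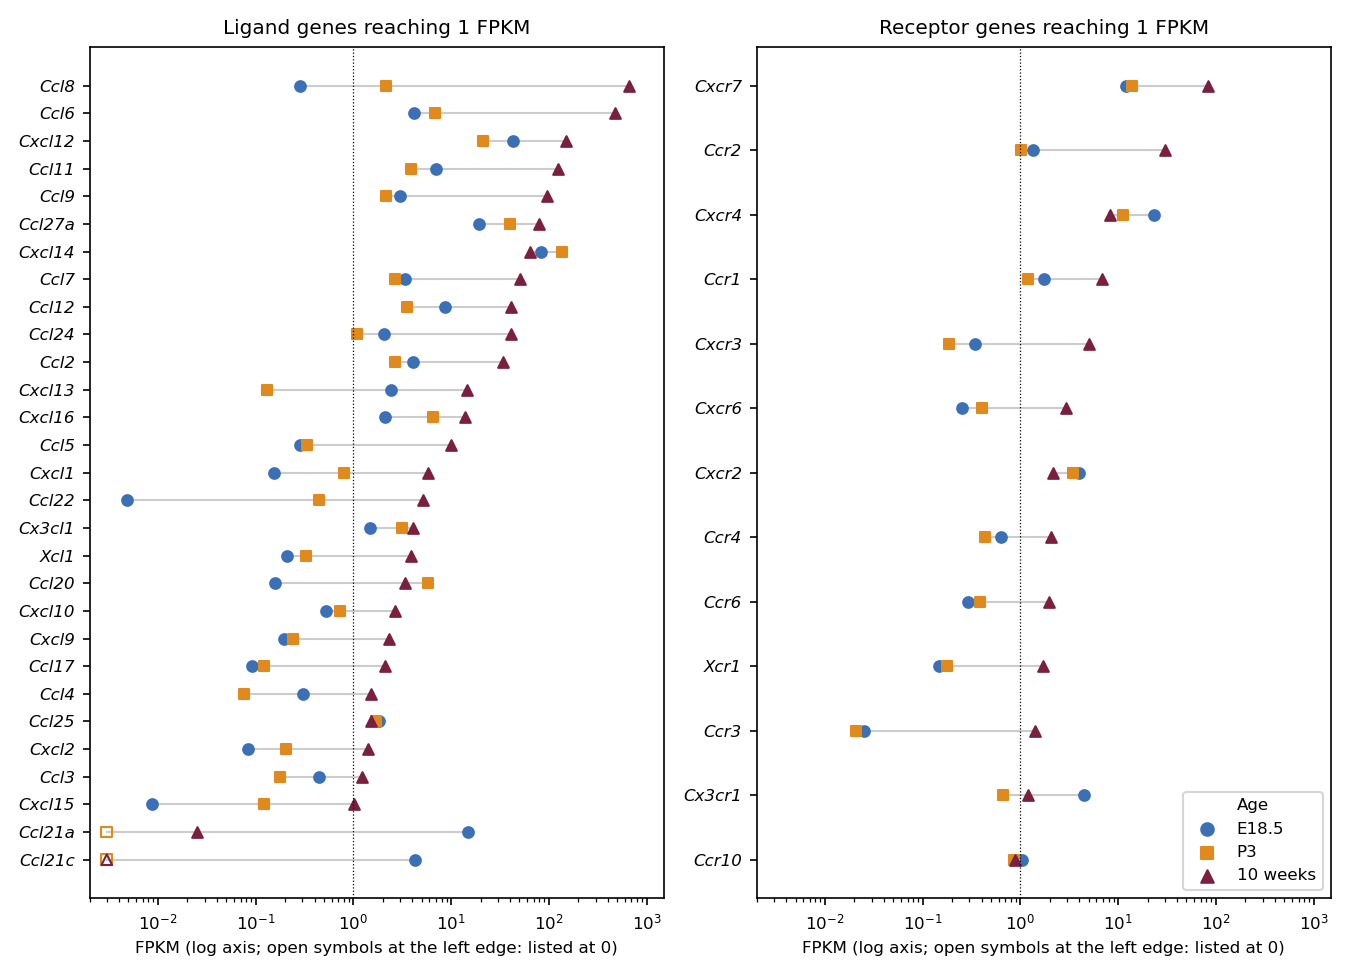
FPKM (horizontal log axis) of 29 ligand and 13 receptor genes that reached 1 FPKM, ordered by the adult value; each row is a gene, each symbol its 1 averaged value at an age, and open symbols mark values listed at 0. The adult symbol is rightmost for most genes, among them Ccl8 at 660.5 and Ccl6 at 475 FPKM; Cxcl14, Ccl20, Cxcr4, Cxcr2, Cx3cr1, Ccr10, Ccl25 and the Ccl21 rows are the exceptions.

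Of 7 compared stromal ligands, 3 were lower at P3 than at E18.5 and 0 higher, against 9.42% and 9.56% of all genes. The 3 were Cxcl13, Ccl21a and Ccl21c. The calls of the Ccl21 rows rest on values at or near 0, marked as low data for Ccl21a and as not tested for Ccl21c. Such values need not mean absence. In both rows E18.5 alone passed the filter. At 10 weeks 5 were higher than at P3, against 19.8% of all genes: Cxcl12, Cxcl13 and, from chromosome 11, Ccl2, Ccl7 and Ccl11. Cxcl12, the homeostatic chemokine of fibroblasts and perivascular cells that binds CXCR4 (chromosome 6, 117118553 to 117131386), stood at 42.7, 21.0 and 150.5 FPKM. It was higher at 10 weeks than at P3 by 2.78, and its difference of -0.99 at P3 against E18.5 becomes a lower call under both other scalings. Cxcl13, the B cell attractant of lymphoid stroma, was lowest at P3, with 2.43, 0.130 and 14.7 FPKM. Fibroblast markers were also lower at P3 than at E18.5, all 5 of 5, with sums of 3142, 1144 and 3590 FPKM. That was not particular to fibroblasts. All 5 endothelial and all 4 skeletal muscle markers were lower as well, and of 4 adipocyte markers 3 were lower and 1 higher. Of 4 basal keratinocyte markers 3 were higher and 0 lower. The part of these cell types in the ligand values was not tested.

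Ccl21a and Ccl21c, ligands of CCR7 made by lymphatic vessels and lymphoid stroma, reached 1 FPKM at E18.5 only. The row Ccl21a, which the tables join with Gm1987, was at 14.7 FPKM at E18.5, listed at 0 at P3 and at 0.0250 FPKM at 10 weeks. Ccl21c was at 4.28 FPKM and then listed at 0 at both later ages. These copies are nearly identical, the tables place Ccl21b and Ccl21c on unplaced sequence, and the row marks for Ccl21a and Ccl21b report low data at all 3 ages. The values of Ccl21c listed at 0 are marked as not tested. A listed 0 with either mark need not mean absence, so no fold is given. Lymphatic vessel markers had values at all ages: Lyve1, which macrophages also express, stood at 36.1, 8.74 and 124 FPKM, and Prox1 at 1.05, 0.504 and 0.983 FPKM.

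The highest adult ligands, Ccl8 and Ccl6, are CC ligands encoded in 2 groups on chromosome 11. In the first, which spans 81849079 to 81993314, Ccl2, Ccl7, Ccl11, Ccl12 and Ccl8 were all higher at 10 weeks than at both other ages. In the second, 83339281 to 83478185, Ccl5, Ccl9 and Ccl6 were. Upstream sequences of 4 of these genes are printed because the genes include the highest adult ligands and lie side by side in pairs. Each is the 120 bases before the RefSeq start, 5′ to 3′ on the gene's strand, in build GRCm38.p6, not the mm9 of the tables. Capitals mark TATAAA on either strand and, in Ccl9, a match to the NF-kB consensus.
Ccl12 (chr11:82101725-82101844, plus strand): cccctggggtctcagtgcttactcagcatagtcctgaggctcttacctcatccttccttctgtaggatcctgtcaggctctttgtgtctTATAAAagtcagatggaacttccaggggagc
Ccl8 (chr11:82115065-82115184, plus strand): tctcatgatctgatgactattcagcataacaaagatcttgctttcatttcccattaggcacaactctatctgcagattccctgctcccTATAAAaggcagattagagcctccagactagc
Ccl9 (chr11:83578637-83578756, minus strand): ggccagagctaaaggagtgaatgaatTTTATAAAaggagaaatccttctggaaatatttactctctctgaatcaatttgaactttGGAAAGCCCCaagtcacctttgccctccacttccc
Ccl6 (chr11:83593088-83593207, minus strand): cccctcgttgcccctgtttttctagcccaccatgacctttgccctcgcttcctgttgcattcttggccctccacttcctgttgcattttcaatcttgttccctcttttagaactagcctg

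Ccl12 and Ccl8 carry TATAAA beginning at -31 and -32 from the start, on the gene's own strand. Ccl9 has it farther up, overlapping on both strands at -92 and -94, and the NF-kB match at -35 on the other strand. In the 120 bases of Ccl6 neither motif was found, which says only that these letters are not in this window.

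Ccl8, in mice a ligand of CCR8 and a product of dermal macrophages (chromosome 11, 81928687 to 81930301), stood at 0.285, 2.16 and 660.5 FPKM. These are ratios of 7.55 and 306 from one age to the next, and log2 differences of 1.30 and 7.71. By level it ranked 14946th, 11625th and 162nd among the genes of the tables. Its neighbour Ccl12, a mouse ligand of CCR2, had another course, with 8.71, 3.52 and 41.3 FPKM: lower at P3 than at E18.5 (difference -1.10) and then higher by 3.22.

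The other genes of that group were likewise highest in the adult. Ccl2, the main attractant of CCR2-bearing monocytes, stood at 4.11, 2.68 and 34.0 FPKM. Ccl7, which acts on the same receptor, stood at 3.40, 2.66 and 51.1 FPKM. Ccl11, the eosinophil attractant eotaxin, which fibroblasts also make, stood at 7.02, 3.90 and 124 FPKM. Their differences from P3 to 10 weeks were 3.25, 3.83 and 4.68, and none of these 3 passed the threshold between E18.5 and P3. Ccl1, at the end of the group, stayed under 1 FPKM, with 0.0261, 0.117 and 0.800.

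In the second group, Ccl6 (83395563 to 83437195), a myeloid ligand of CCR1 found in rodents, stood at 4.15, 6.81 and 475 FPKM, a difference of 5.93 from P3 to 10 weeks; its listed span overlaps that of the uncharacterised E230016K23Rik. Ccl9, a rodent ligand of CCR1 as well, stood at 2.97, 2.17 and 95.0 FPKM (difference 4.92). Ccl5, the T cell product RANTES, stood at 0.281, 0.338 and 9.89 FPKM (difference 3.03). Ccl3 and Ccl4, inflammatory macrophage products, remained low in the adult, at 1.24 and 1.51 FPKM, after 0.447 and 0.303 at E18.5 and 0.177 and 0.0758 at P3. Of this pair Ccl4 passed the threshold from P3 to 10 weeks (1.22) and Ccl3 did not (0.93). Members of one group thus reached adult levels of very different size, from 1.24 to 475 FPKM.

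The macrophage markers give a scale for these differences. From P3 to 10 weeks the largest difference of the 10 was that of Lyz2, lysozyme, at 5.49. The difference of Ccl8 and that of Ccl6 lay above all 10 and no other member's did. From E18.5 to 10 weeks Ccl8, Ccl6 and Ccl9 exceeded the largest marker difference of 4.18, again that of Lyz2.

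**Figure D4:**
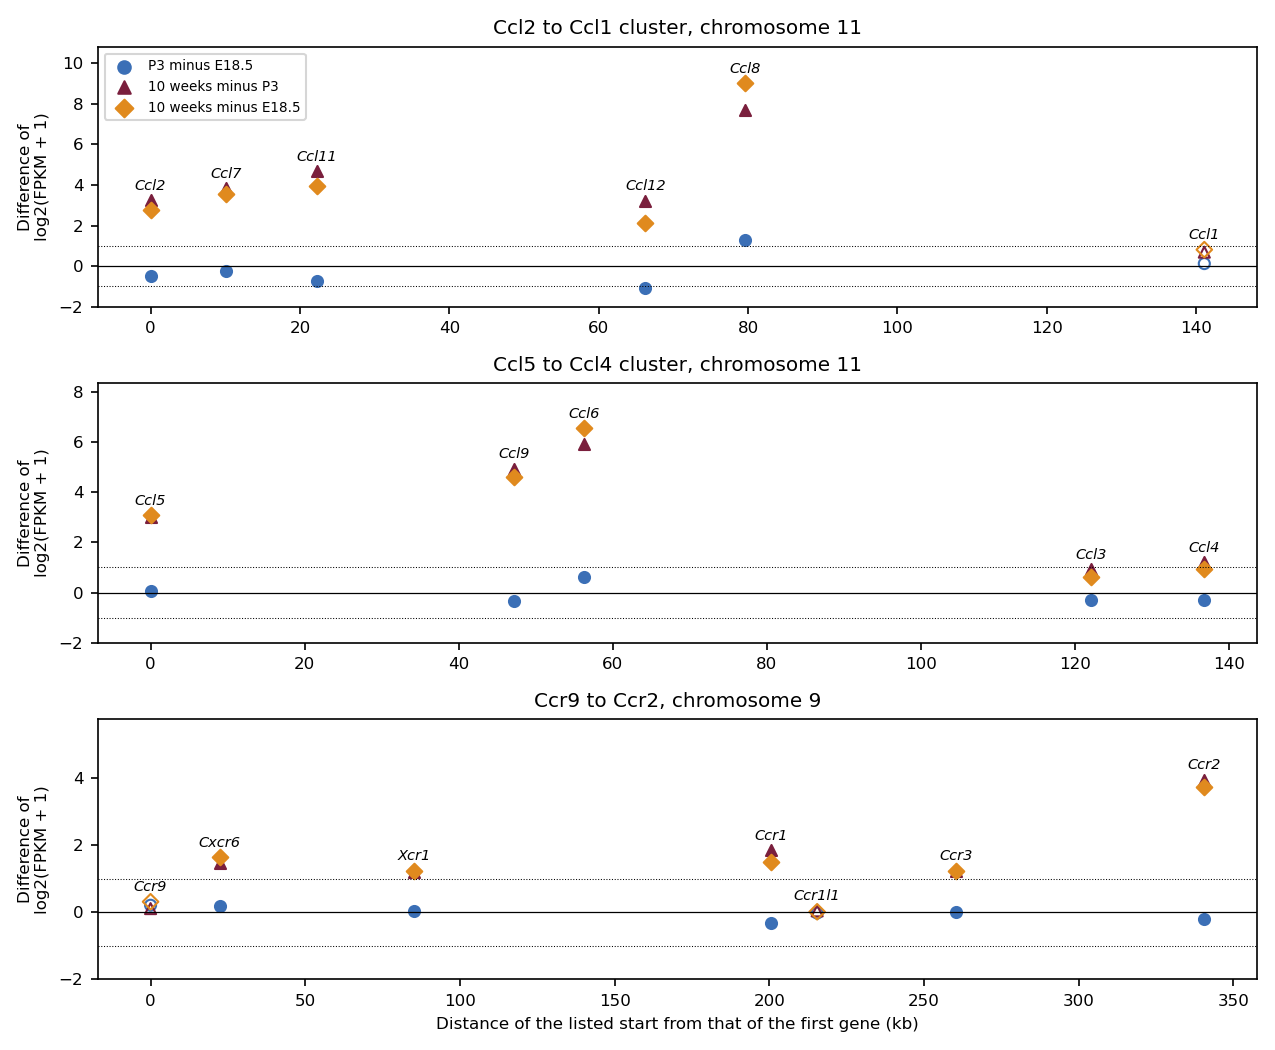
Difference of log2(FPKM + 1) (vertical axis) for genes of 3 neighbouring groups, by distance of the listed start from the first gene's start in kb (horizontal axis); symbols are the 3 comparisons of ages, open where the gene stayed under 1 FPKM, and dotted lines mark the threshold. Ccl8 at 7.71 and 9.01 and Ccl6 at 5.93 and 6.53 stand above their neighbours, and Ccl1, Ccr9 and Ccr1l1 lie inside the threshold lines.

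Outside chromosome 11, Ccl24, or eotaxin-2, a product of macrophages of the wound-healing type (chromosome 5, 136045807 to 136048913), stood at 2.05, 1.08 and 41.1 FPKM, a difference of 4.34 from P3 to 10 weeks. Its neighbour Ccl26 was listed at 0 at E18.5 and P3 and at 0.646 FPKM in the adult. The CCR4 ligands of dendritic cells were low: Ccl22 at 0.00484, 0.442 and 5.11 FPKM and Ccl17 at 0.0924, 0.121 and 2.12 FPKM. Both were higher at 10 weeks than at P3, by 2.08 and 1.48, and both lie within a stretch of chromosome 8 that also holds Cx3cl1. Of the 10 myeloid ligands, all compared, 9 were higher at 10 weeks than at P3, against 19.8% of all genes. Ccl3, Ccl4, Ccl17, Ccl22 and Cxcl2 among them reached 1 FPKM at 10 weeks alone and entered through that age. The Cxcl2 call is lost under both other scalings.

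The interferon-induced T cell attractants Cxcl9 and Cxcl10 stood at 0.195, 0.239 and 2.33 FPKM and at 0.523, 0.729 and 2.66 FPKM. Of the neutrophil attractants, Cxcl1 stood at 0.154, 0.797 and 5.85 FPKM. Cxcl2, also one of them but counted above with the myeloid ligands, stood at 0.0835, 0.204 and 1.41 FPKM. Cxcl3 and Cxcl5 stayed under 1 FPKM at all ages. Cxcl2 passed the threshold by a narrow margin (1.00), and does not under either other scaling. Xcl1, the lymphotactin of T and NK cells, stood at 0.211, 0.329 and 3.85 FPKM. Cxcl15, known from lung epithelium, reached 1.00 FPKM in the adult from 0.00867 and 0.122. Each of these genes was largest at 10 weeks, and all but Cxcl15, Cxcl3 and Cxcl5 were higher there than at P3. The compared ones all reached 1 FPKM at 10 weeks alone and entered through that age. Ccl25, the thymus and gut ligand of CCR9, was flat at 1.84, 1.71 and 1.50 FPKM.

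Of the receptors, 7 stood at 1 FPKM or more at E18.5, 5 at P3 and 13 in the adult. Cxcr7, now called Ackr3, a scavenging receptor that takes up CXCL12 (chromosome 1, 92100578 to 92112863), was the highest receptor at P3 and at 10 weeks, with 11.9, 13.8 and 82.1 FPKM, and was higher at 10 weeks than at P3 by 2.49. Cxcr4, the signalling receptor of CXCL12 (chromosome 1, 130484776 to 130488876), went the other way, with 23.1, 11.1 and 8.23 FPKM. Its difference from E18.5 to 10 weeks was -1.38; that from E18.5 to P3, -0.99, becomes a lower call under both other scalings. At E18.5 Cxcr4 thus stood above Cxcr7, and at 10 weeks below it. Cx3cr1, the fractalkine receptor of monocytes, macrophages and Langerhans cell precursors, was highest at E18.5, with 4.43, 0.656 and 1.21 FPKM, lower at both later ages. Cxcr2, the neutrophil receptor that keratinocytes also express, stayed within the threshold throughout, at 3.96, 3.46 and 2.17 FPKM, and so did Ccr10, at 1.03, 0.864 and 0.882 FPKM.

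Among receptors of monocytes and macrophages, Ccr2 (chromosome 9, 124016922 to 124023879) stood at 1.34, 1.02 and 30.3 FPKM, the largest receptor difference from P3 to 10 weeks, 3.95. Ccr1, a receptor of Ccl6 and Ccl9, stood at 1.74, 1.18 and 6.81 FPKM and was higher at 10 weeks than at P3 by 1.84. Ccr3, the eosinophil receptor that mast cells also carry, was at 0.0250 and 0.0209 FPKM and then at 1.41.

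Cxcr3, the X-linked receptor of CXCL9 and CXCL10 on effector T cells, stood at 0.341, 0.187 and 5.06 FPKM (difference 2.35 from P3). Cxcr6, the receptor of CXCL16, stood at 0.250, 0.406 and 2.91 FPKM; its listed span overlaps that of Fyco1. The skin-homing receptor Ccr4 stood at 0.637, 0.433 and 2.03 FPKM, and Ccr6, the receptor of CCL20, at 0.294, 0.385 and 1.98 FPKM. Xcr1, carried by cross-presenting dendritic cells, stood at 0.147, 0.176 and 1.69 FPKM. All 5 reached 1 FPKM at 10 weeks alone, so they were compared through the age at which they were high. All 5 were higher at 10 weeks than at P3, while against E18.5 Ccr4 stayed within the threshold (0.89). Ccr7 and Ccr8 were largest in the adult as well but stayed under 1 FPKM, at 0.627 and 0.738 there.

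Set side by side as 40 textbook pairs of ligand and receptor, both partners stood at 1 FPKM or more in 9 pairs at E18.5, in 7 at P3 and in 25 in the adult. Pairs share genes, so these are not separate observations. In 26 pairs both partners were compared. From P3 to 10 weeks both were higher in 17 of them, where 29 of all 43 compared members were higher. Several of these partners reached 1 FPKM at 10 weeks alone and were compared through that age. Opposite calls could not occur here, since the 1 member lower at 10 weeks than at P3, Cxcl14, is in no pair. The pairs of CCR2 with Ccl2, Ccl7 and Ccl12 had both partners above 30 FPKM in the adult: Ccr2 at 30.3 and the ligands at 34.0, 51.1 and 41.3 FPKM.

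Several pairs were unequal. Ccl8, at 660.5 FPKM in the adult, stood beside Ccr8 at 0.738 FPKM, and Ccl27a, at 79.6 FPKM, beside Ccr10 at 0.882 FPKM. From E18.5 to P3 the ligand alone was higher in 3 pairs, Ccl20 with Ccr6, Ccl27a with Ccr10 and Cxcl16 with Cxcr6. From P3 to 10 weeks this was so in 3 others: Cxcl12 with Cxcr4, and Cxcl1 and Cxcl2 with Cxcr2. From E18.5 to 10 weeks the partners of 2 pairs had opposite calls, with Cxcl12 higher and Cxcr4 lower, and Cx3cl1 higher and Cx3cr1 lower. The second of these rests on the narrow Cx3cl1 call given above. A ligand diffuses and a receptor sits on few cells, so RNA levels in whole skin do not give the occupancy of a receptor.

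**Figure D5:**
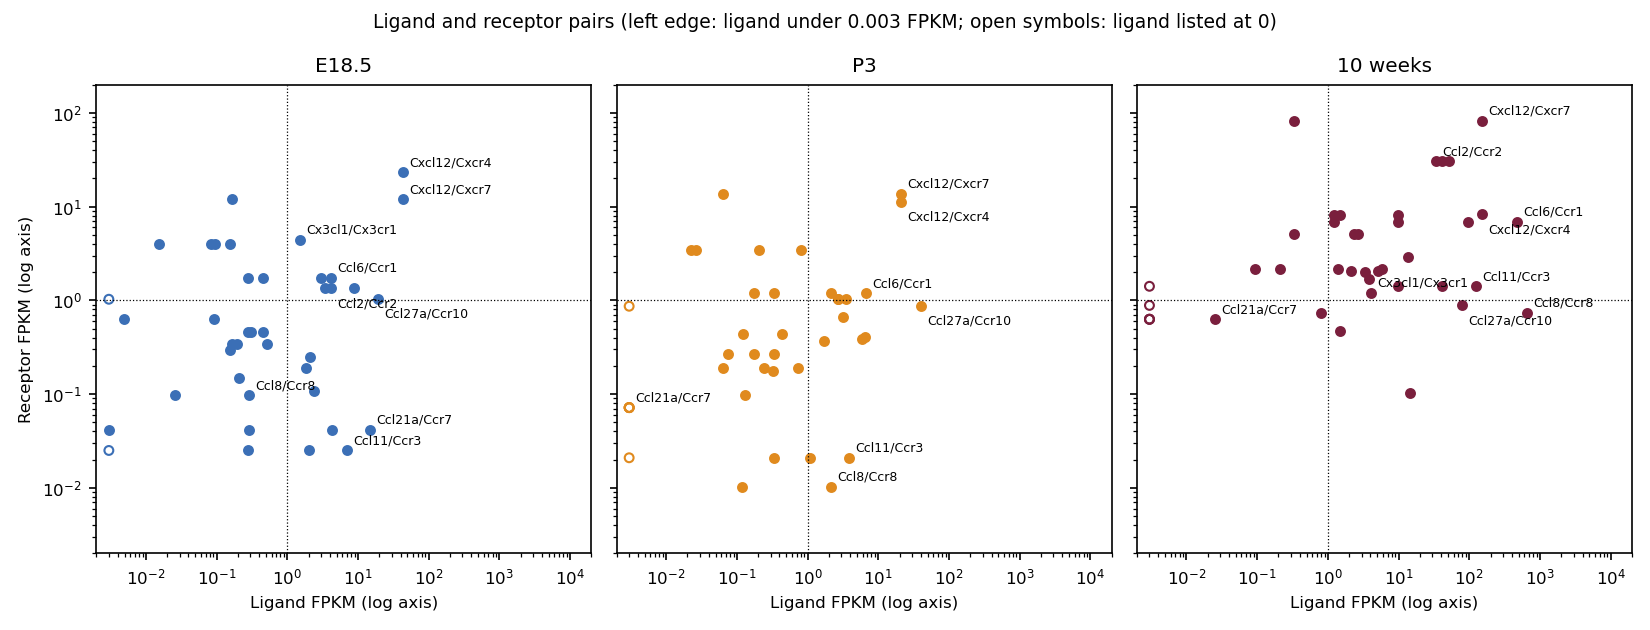
FPKM of receptor (vertical log axis) against FPKM of ligand (horizontal log axis) for 40 textbook pairs at each age; dotted lines mark 1 FPKM, open symbols at the left edge are ligands listed at 0, and a few pairs are labelled. The upper right field holds 9 pairs at E18.5, 7 at P3 and 25 in the adult, and the Ccl8 and Ccr8 pair lies far right and low in the adult.

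Related genes are often neighbours, and their calls can be read by group. The receptor genes Cxcr6, Xcr1, Ccr1, Ccr3 and Ccr2 lie in 1 stretch of chromosome 9 and were all higher at 10 weeks than at P3. Among these receptors, Cxcr6, Xcr1 and Ccr3 reached 1 FPKM at 10 weeks alone and were compared through that age. Of 2 other genes compared in this stretch, Fyco1 and Cdkn2d, neither was higher, with differences of 0.76 and 0.15. Fyco1 stood above 1 FPKM at all ages and Cdkn2d at E18.5 alone, so they did not pass the filter in the same way. In the chromosome 11 groups 5 of 5 and 4 of 5 compared members were higher at 10 weeks than at P3, against 19.8% of all genes. Of the second group, Ccl3, Ccl4 and Ccl5 reached 1 FPKM at 10 weeks alone. The 5 CXC genes between 91188325 and 91334964 on chromosome 5 enclose Pf4, whose name does not follow the rule. Next to interferon-induced Cxcl9, Cxcl10 and Cxcl11 lies Art3, which shares the listed span of the latter pair and stood at 19.4, 10.4 and 68.9 FPKM, and how reads were divided there was not tested.

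Genes of the same system with other names were counted from a separate list. Pf4, the platelet and macrophage chemokine also called CXCL4, was abundant and lowest at P3, with 125, 21.8 and 230.0 FPKM. Its platelet companion Ppbp stayed under 1 FPKM, and the platelet markers Itga2b and Gp1bb stood at 1.10, 1.44 and 3.19 FPKM and at 0.730, 5.71 and 1.00 FPKM. All 4 atypical or decoy receptors were higher at 10 weeks than at E18.5, against 16.1% of all genes. From P3 to 10 weeks 3 of the 4 were higher, against 19.8% of all genes. Ccbp2 and Ccrl2 among the 4 reached 1 FPKM at 10 weeks alone and were compared through that age. Darc, the venular receptor now called Ackr1, stood at 2.79, 1.51 and 32.2 FPKM. Ccbp2, which degrades inflammatory CC ligands in lymphatic vessels, stood at 0.785, 0.879 and 8.64 FPKM. Ccrl1, which scavenges CCR7 ligands and is expressed by keratinocytes, stood at 4.67, 16.1 and 20.9 FPKM, and Ccrl2 at 0.334, 0.164 and 4.83 FPKM. Ccrl1 was the 1 of the 4 that was higher at P3 than at E18.5, by 1.59.

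Of 31 compared genes of receptor signalling, 15 were higher at 10 weeks than at P3 and 0 lower, with a median difference of 0.87. Among all genes 19.8% were higher and 9.98% lower, with a median of 0.14. The most abundant of them differed little: the G protein subunits Gnai2 (138, 95.2 and 167 FPKM), Gnai3 (73.7, 125 and 89.4 FPKM) and Gnb2 (144, 171 and 139 FPKM) and the GTPase Rac1 (117, 129 and 152 FPKM) all stayed within the threshold. Genes restricted to blood cells were among the higher ones. Named after their values were seen, Rac2 stood at 5.54, 1.58 and 18.2 FPKM, the guanine exchange factor Dock2 at 2.07, 1.11 and 11.4 FPKM, and Rgs1, which ends receptor signals in leukocytes, at 0.287, 0.367 and 12.8 FPKM. Of 6 compared enzymes that trim chemokines or sulfate their receptors, 4 were higher at 10 weeks than at P3: Mmp2, Dpp4, Mmp9 and Mmp12. The share of all genes is again 19.8%, and Mmp9 and Mmp12 reached 1 FPKM at 10 weeks alone. Dpp4, the protease that cuts the end of CXCL12, stood at 14.6, 17.2 and 40.5 FPKM, and Mmp2 at 65.3, 30.8 and 149 FPKM. Between these ages the sulfotransferases Tpst1 and Tpst2 stayed within the threshold, at 13.2 and 12.6 FPKM at P3 and 25.4 and 23.7 in the adult.

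Upstream sequence was in RefSeq's table for 41 of the 58 rows, and 250 bases before the start were searched on both strands. The NF-kB consensus was found in 8 of 41 genes, 19.5%, against 4.46% of all 27025 genes with an entry. Those 8 were Ccl9, Ccl20, Cxcl1, Cxcl2, Cxcl3, Cxcl10, Ccr3 and Ccr6. TATAAA was found in 12 of 41, 29.3%, against 14.3%, and GAGGAA, the core bound by the myeloid factor PU.1, in 13 of 41, 31.7%, against 25.9%. GAAANNGAA, part of the interferon response element, was found in 8 of 41, 19.5%, against 8.18%, with Cxcl9 and Cxcl10 among them. The 4 motifs may overlap, and genes with several starts have more than 1 window, so a match is a description of these letters and not a bound site.

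The 15 rows that stayed under 1 FPKM were Ccl1, Ccl19, Ccl21b, Ccl26, Ccl28, Cxcl3, Cxcl5, Cxcl11, Cxcl17, Ccr1l1, Ccr7, Ccr8, Ccr9, Cxcr1 and Cxcr5. Their largest value was that of Ccl1 in the adult, 0.800 FPKM. Ccl28 and Cxcr1 were listed at 0 at all 3 ages. Ccl19, another ligand of CCR7, was at 0.284 FPKM at E18.5 and listed at 0 afterwards, as the Ccl21 copies nearly were. The listed span of Cxcl17 overlaps that of Lipe and 3 other genes.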

How the data were processed

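RNA of whole skin was extracted with Trizol and libraries were made with the Illumina TruSeq kit, per the labels' protocols. The authors deposited 1 table per age with 1 value per gene, an averaged FPKM per the file headers. TopHat2 2.0.7, Cufflinks 2.1.1 and build mm9 are named in the submitters' processing notes; annotation, strand setting and read numbers were not given in the sources used here. Listed starts were raised by 1 to count from 1. Values at 0 with a mark of very high or failed estimation (3 at E18.5, 7 at P3) were treated as missing; no chemokine row had such a mark.

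Python 3.11.15 with pandas 2.3.3 was used. Genes that reached 1 FPKM at any age were compared by log2(FPKM + 1) with a threshold of 1. The calculation was run on simulated data with levels well above 1 FPKM and changes larger than the threshold. That run does not bear on genes at low levels or near the threshold. The limma test planned for replicate columns was not used, since the tables hold none. The name rule uses no measured value, but the choice of this gene family, the lists, pairs and source classes was made with earlier results of these data known. Every chemokine gene reaching 1 FPKM is named, except 1 receptor that is counted but not reported here; of the related lists, the highest genes, other names being marked. Alternatives were pseudocounts of 0.1 and 5, no minimum or one of 5 FPKM, median-of-ratios and upper-quartile scaling, leaving out failure-marked rows and, added after the data were seen, rows sharing a span and the Ccl19 and Ccl21 rows. Of 10 chemokine rows the listed span overlaps another row. Upstream sequences are from RefSeq, GRCm38.p6.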

Additional observations from a re-analysis of the deposited data

How the results depend on the processing

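No call could turn its direction under these alternatives, so they do not test direction. Pseudocounts, minimums and leaving out rows keep the sign of a difference. The 2 scalings shift log2 ratios by less than the threshold. From P3 to 10 weeks the 29 higher genes became 14 with a pseudocount of 5 FPKM and 18 with a minimum of 5 FPKM, which compares 24 genes. From E18.5 to 10 weeks the 31 higher became 18 with a pseudocount of 5, and the 4 lower became 2 with a pseudocount of 5, with a minimum of 5, without the Ccl19 and Ccl21 rows, and without rows sharing a span. From E18.5 to P3 the 4 higher and 5 lower became 8 and 8 with a pseudocount of 0.1 and 1 and 1 with a pseudocount of 5. The 5 lower became 3 with a minimum of 5, without rows sharing a span and without the Ccl19 and Ccl21 rows. The 4 higher became 2 without rows sharing a span. Leaving out failure-marked rows or the minimum changed no count, and neither could. No chemokine row had such a mark, and a gene under 1 FPKM at all ages cannot pass the threshold on this scale. Scaling by the median of ratios shifts log2 ratios by -0.12 (E18.5 to P3), -0.10 (P3 to 10 weeks) and -0.22 (E18.5 to 10 weeks), and by the upper quartile by -0.22, -0.08 and -0.30. Over all genes the share of calls that were higher at P3 than E18.5 moves from 50.4% to 37.4% with the upper quartile. Under it the 29, 31 and 4 higher chemokine genes became 28, 30 and 3. No leave-one-out or paired analysis was possible because each age has 1 value. Without read numbers the error of low values is unknown.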
